A study of Rattus norvegicus with 24 samples.

Results

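The pyruvate dehydrogenase kinases and phosphatases are the enzymes that set how much of the pyruvate dehydrogenase complex is active in mitochondria. Their genes Pdk1, Pdk2, Pdk3, Pdk4, Pdp1 and Pdp2 were followed here in the livers of 24 rats. The members were taken by gene symbol, and where a gene has several probe sets its probe set was to be chosen by the highest mean level over all 24 arrays. Each of the 6 genes had 1 probe set, so no level decided the choice of probe set. The genes themselves were chosen with earlier results of these data known, among them a Pdk1 rise with metformin on day 14. The 6 are among 22093 genes with a named probe set and 19686 genes tested, and all 6 passed the filter on low values in all 24 arrays.

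The livers came from male RccHan Wistar rats aged 7 to 8 weeks at the start, and all groups were dosed by gavage. Metformin, the biguanide used against diabetes, was given at 800 mg/kg, and the vehicle animals received 0 mg/kg in ethanol, Kolliphor HS 15 and tap water (10, 40 and 50 parts). Dosing lasted 1, 3 or 14 days, with a metformin group and a vehicle group on each day and 4 rats, 1 array each, in every group. The design names 5 animals a group, of which 4 have an array here.

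The kinases PDK1 to PDK4 phosphorylate the E1 alpha subunit of the complex and switch it off, and the phosphatases PDP1 and PDP2 remove the phosphate and switch it on. The active complex turns pyruvate into acetyl-CoA, which in liver feeds the citric acid cycle or, after export as citrate, fatty acid synthesis. PDK2 and PDK4 are the kinases best known from liver, PDK4 is known to rise in fasting, and PDK1 is known as a target of hypoxia-inducible factor 1.

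Values are log2 of the deposited intensity of each gene's probe set, so a difference of 1 is a doubling on that scale, and levels of different genes cannot be set against each other. A difference was called when limma's moderated test, fitted over all 24 arrays and adjusted by the Benjamini-Hochberg method over the 19686 genes, gave an adjusted p under 0.05. Errors of differences are standard errors of that fit, which pools the spread of all groups, and errors of means are SD over 4 rats. Where the compared groups varied more than the others, these standard errors are smaller than those groups alone would give. The arrays were alike in scale (median log2 intensity 4.80 to 5.11), and r within a group was 0.989 or more. Of the hepatocyte markers, 7 of 7 measured ones lay above the filter in all 24 arrays, with a lowest log2 intensity of 9.70. The filter alone does not single out liver cells, since 6 of 7 skeletal muscle markers also lay above it in all 24 arrays.

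The promoters of Pdk1 and Pdk4 are shown because these genes had the widest changes and are textbook targets of different regulators. They are the RefSeq windows on GRCr8 of 300 bases around the gene start, at chr3:77113264-77113563 on the plus strand for Pdk1 and chr4:34568280-34568579 on the minus strand for Pdk4. Capitals mark matches on either strand to the hypoxia response cores ACGTG and GCGTG, the E-box CACGTG, the FOXO motif GTAAACA, the nuclear receptor motif AGGTCA or the glucocorticoid receptor motif AGAACA.
Pdk1: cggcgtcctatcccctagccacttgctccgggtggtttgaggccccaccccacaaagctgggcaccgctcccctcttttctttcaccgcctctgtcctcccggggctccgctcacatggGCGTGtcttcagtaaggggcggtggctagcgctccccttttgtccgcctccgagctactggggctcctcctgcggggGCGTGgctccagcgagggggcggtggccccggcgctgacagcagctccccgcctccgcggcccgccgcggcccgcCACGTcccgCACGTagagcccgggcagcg
Pdk4: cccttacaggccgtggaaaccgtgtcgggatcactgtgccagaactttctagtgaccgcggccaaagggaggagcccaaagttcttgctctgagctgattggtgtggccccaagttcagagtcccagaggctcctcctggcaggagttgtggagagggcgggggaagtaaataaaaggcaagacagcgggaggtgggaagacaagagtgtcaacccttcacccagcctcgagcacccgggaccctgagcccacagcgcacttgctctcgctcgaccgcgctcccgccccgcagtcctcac
Counted with the gene start as position 1, Pdk1 held 2 matches to ACGTG, at 22 and 31, and 2 to GCGTG, at -131 and -54. Of 27457 rat promoter windows of the same 300 bases, 19.7% held ACGTG and 31.1% held GCGTG. The Pdk4 window held none of the 6 motifs, which are present in 6.65% (CACGTG), 3.76% (GTAAACA), 15.7% (AGGTCA) and 20.1% (AGAACA) of windows. CACGTG contains ACGTG, so these motifs overlap. RefSeq windows were matched for 4 of the 6 genes. The Pdk2 window (GC 64%) held 1 CACGTG and the Pdk3 window 1 ACGTG and 4 GCGTG.

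The within-day comparison asks how livers of metformin-dosed rats differed from those of vehicle rats killed on the same day. By day 14 the kinase Pdk1 and the phosphatase Pdp2 were both higher in metformin livers, by 1.97-fold and 1.76-fold. No other member was called, and on days 1 and 3 none of the 6 was.

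**Figure D1:**
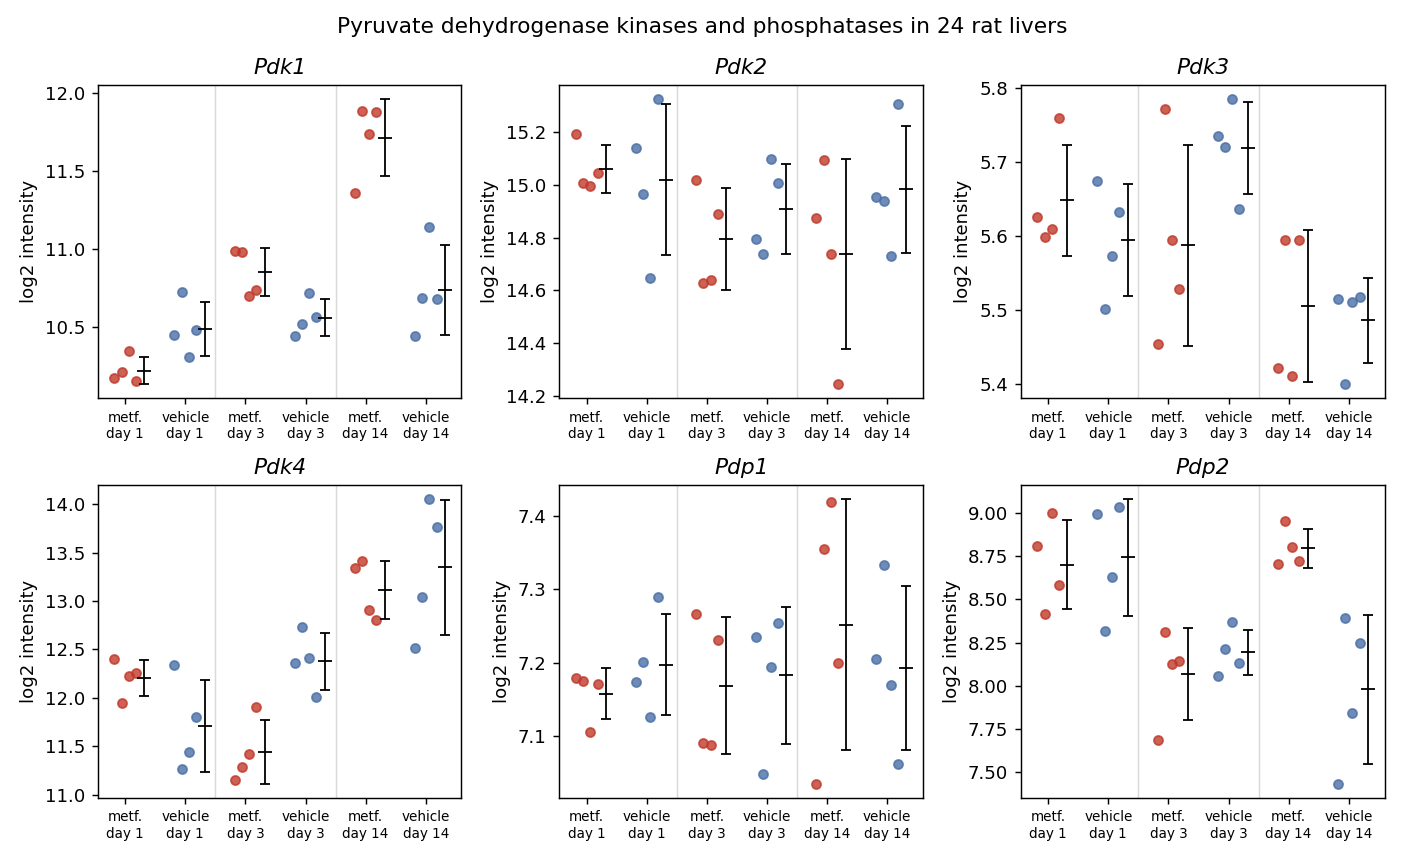
Log2 intensity of the 6 genes (a panel each, vertical axis) in every liver, with metformin livers left of vehicle livers within days 1, 3 and 14; points are rats and bars are mean ± SD of 4 rats. Pdk1 in metformin livers of day 14 (11.36 to 11.88) and Pdp2 there (8.70 to 8.95) lie above all vehicle livers of that day, while Pdk3 and Pdp1 stay within 5.40 to 5.79 and 7.04 to 7.42 throughout.

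Pdk1, the kinase that can phosphorylate all 3 regulatory serines of E1 alpha, had log2 intensities of 11.36, 11.88, 11.74 and 11.88 in metformin livers of day 14, against 10.45, 10.69, 11.14 and 10.68 in vehicle livers. Every metformin liver lay above every vehicle liver, and the gap between the lowest metformin and the highest vehicle liver was small beside the distance between the group means of 11.71 ± 0.25 and 10.74 ± 0.29 (SD, n = 4 each). The difference was 0.98 ± 0.13 (95% interval 0.70 to 1.25, limma adjusted p = 6.33e-04). On day 3 Pdk1 was at 10.99, 10.98, 10.70 and 10.74 in metformin livers and 10.44, 10.52, 10.72 and 10.56 in vehicle livers. One vehicle liver lay among the metformin livers, and the difference of 0.29 ± 0.13 did not pass (limma adjusted p = 0.330). After 1 day the levels were 10.17, 10.21, 10.34 and 10.16 in metformin livers and 10.45, 10.73, 10.31 and 10.48 in vehicle livers. Here 3 of 4 metformin livers lay below all vehicle livers, and the difference of -0.27 ± 0.13 did not pass (limma adjusted p = 0.620).

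The metformin effect on Pdk1 itself differed between days. It was larger on day 14 than on day 1 by 1.25 ± 0.19 log2 (95% interval 0.86 to 1.63, limma adjusted p = 0.00253). This was the only called member, against 1.66% of all genes called in that comparison and 0.569% called as higher. Against day 3 the day 14 effect was larger by 0.68 ± 0.19, which did not pass (limma adjusted p = 0.426, unadjusted p = 0.00134), and the day 3 effect exceeded that of day 1 by 0.56 ± 0.19 (limma adjusted p = 0.293). Averaged over the 3 days, Pdk1 was higher in metformin livers by 0.33 ± 0.08 (limma adjusted p = 0.0183), the only member called among 3.23% of all genes. The call on day 14 held without any 1 of the 8 livers (adjusted p up to 0.00521), and it ended when the spread was estimated from the 8 arrays of day 14 alone (adjusted p = 0.0596).

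Pdp2, the phosphatase that is known to respond to insulin and to be less sensitive to calcium than PDP1, had log2 intensities of 8.70, 8.95, 8.81 and 8.72 in metformin livers of day 14, against 7.43, 8.39, 7.84 and 8.25 in vehicle livers. The metformin livers lay close together and above all vehicle livers, which were spread over about 1 log2 unit. The means were 8.80 ± 0.11 and 7.98 ± 0.43 (SD, n = 4 each), and the difference was 0.82 ± 0.19 (95% interval 0.43 to 1.21, limma adjusted p = 0.0186). The effect on day 14 exceeded that on day 1 by 0.86 ± 0.26 (limma adjusted p = 0.103) and that on day 3 by 0.94 ± 0.26 (limma adjusted p = 0.458), and neither difference passed.

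Earlier Pdp2 values overlapped between the groups. On day 3 they ran from 7.69 to 8.31 in metformin livers and 8.06 to 8.37 in vehicle livers, and on day 1 from 8.41 to 9.002 and from 8.31 to 9.03. The differences were -0.13 ± 0.19 on day 3 (limma adjusted p = 0.780) and -0.04 ± 0.19 on day 1 (limma adjusted p = 0.985). The day 14 call for Pdp2 was lost without vehicle replicate 1, the liver at 7.43 (difference 0.64, adjusted p = 0.0909), and without metformin replicate 2 (0.77, adjusted p = 0.0565). It was also lost when every probe set was tested (adjusted p = 0.0568) and in the fit of the day 14 arrays alone (adjusted p = 0.112).

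Pdk4, the kinase that is induced by fasting in many tissues, lay lower in metformin livers on day 3 without passing the test. Its log2 intensities were 11.15, 11.29, 11.42 and 11.91 in metformin livers and 12.35, 12.73, 12.41 and 12.01 in vehicle livers. The 2 groups did not overlap, with all metformin livers lower, an arrangement that 3.41% of all genes showed in that direction. The difference was -0.93 ± 0.27 (95% interval -1.50 to -0.37), with an unadjusted p of 0.00249 and a limma adjusted p of 0.147. An exact permutation test of the 8 livers gave a two-sided unadjusted p of 0.0286, the smallest that 4 against 4 allows.

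On day 1 Pdk4 was at 12.40, 11.95, 12.23 and 12.26 in metformin livers and 12.34, 11.27, 11.44 and 11.80 in vehicle livers. The groups overlapped through 1 high vehicle liver, and the difference was 0.50 ± 0.27 (limma adjusted p = 0.699). By day 14 the values were 13.34, 13.41, 12.91 and 12.80 in metformin livers against 12.52, 13.05, 14.05 and 13.77 in vehicle livers. The metformin livers fell inside the vehicle range, and the difference was -0.23 ± 0.27 (95% interval -0.80 to 0.33, limma adjusted p = 0.755). The metformin effect on day 3 lay below that on day 1 by 1.43 ± 0.39 log2 (a difference of -1.43, limma adjusted p = 0.233), and that on day 14 differed from day 1 by -0.73 ± 0.39 (limma adjusted p = 0.416), so no change of the effect between days passed.

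**Figure D2:**
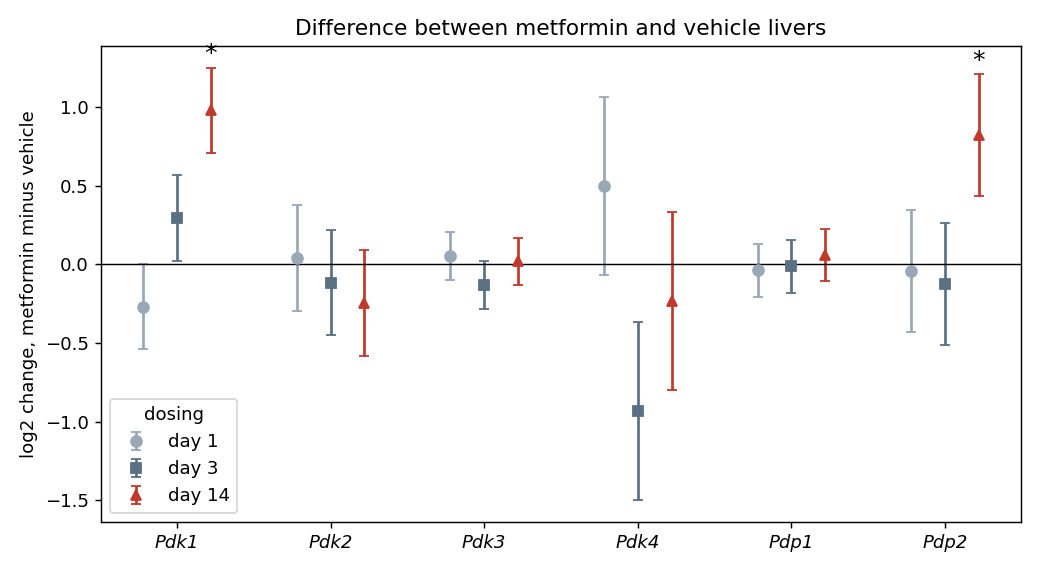
Log2 difference between metformin and vehicle livers (vertical axis) for the 6 genes on days 1, 3 and 14, with 95% intervals of the limma fit and stars at called differences. Pdk1 (0.98) and Pdp2 (0.82) carry stars on day 14, and Pdk4 on day 3 (-0.93) has an interval below 0 without a star.

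Pdk2, the kinase with the widest tissue distribution and a main form in liver, had no difference that passed. On day 14 it was at 14.88, 15.10, 14.74 and 14.24 in metformin livers and 14.96, 14.94, 14.73 and 15.31 in vehicle livers. Those ranges overlapped, and the difference was -0.25 ± 0.16 (95% interval -0.58 to 0.09, limma adjusted p = 0.493). On days 3 and 1 the differences were -0.12 ± 0.16 (limma adjusted p = 0.765) and 0.04 ± 0.16 (limma adjusted p = 0.983).

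Pdk3, a kinase known from testis, kidney and brain, lay between 5.40 and 5.79 in all 24 livers. Its differences were 0.05 on day 1, -0.13 on day 3 and 0.02 on day 14, with limma adjusted p of 0.930, 0.429 and 0.941. Pdp1, the phosphatase that calcium activates, lay between 7.04 and 7.42, with differences of -0.04, -0.01 and 0.06 and limma adjusted p of 0.962, 0.950 and 0.794. The 95% interval for Pdp1 on day 14 ran from -0.11 to 0.23, and that for Pdk3 from -0.13 to 0.17. Over the 6 groups the means of Pdk3 spanned 0.23 log2 and those of Pdp1 0.09.

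Over the 6 genes, 2 were called on day 14, both higher, where 3.29% of all genes were called and 2.07% were called as higher. The set was chosen with the Pdk1 rise on day 14 known, so this count is no test of the set. In both Pdk1 and Pdp2, the 4 metformin livers lay above the 4 vehicle livers, which held for 5.07% of all genes. The median difference over the 6 was 0.04, and that over all tested genes was 0.01. On day 3 limma called 0 of 6 (0.254% of all genes), 2 had an unadjusted p under 0.05 (13.6% of all genes) and 1, Pdk4, passed the exact permutation test unadjusted. On day 1 limma called 0 of 6 (0.0152% of all genes), 0 had an unadjusted p under 0.05 (8.22% of all genes) and 0 passed the exact permutation test. For the change of the effect between days 3 and 1, limma called 0 of 6 (0% of all genes), with 2 at an unadjusted p under 0.05 (10.7% of all genes), Pdk1 and Pdk4. For days 14 and 3 it called 0 of 6 (0.00508% of all genes), again with 2 at an unadjusted p under 0.05 (7.54% of all genes), Pdk1 and Pdp2.

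Levels over the days within each treatment show how the members behaved in vehicle livers. Different rats were killed on each day, at different ages, and any handling that differed between days cannot be told apart from the day. In vehicle livers Pdk4 was higher after 14 days than after 1 day, at 12.52, 13.05, 14.05 and 13.77 against 12.34, 11.27, 11.44 and 11.80. All 4 livers of day 14 lay above all 4 of day 1, which held for 3.21% of all genes. The difference was 1.63 ± 0.27 or 3.10-fold (limma adjusted p = 0.00119), and it remained called without any 1 of the 8 livers but not in the fit of those 8 arrays alone (adjusted p = 0.0698). Per1, a clock gene that glucocorticoids induce, fell by 1.06 ± 0.22 in the same comparison (limma adjusted p = 0.00866). It was the only called gene of 10 glucocorticoid targets there, of which 3 lay higher and 7 lower (median -0.10). Of 7 hepatocyte markers Ass1 rose and Apoa1 fell in that comparison. No label gives the hour of necropsy or the feeding state, and their part in the Pdk4 difference was not tested.

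Vehicle Pdp2 ran the other way over time. It was at 7.43, 8.39, 7.84 and 8.25 on day 14 and 8.996, 8.31, 8.63 and 9.03 on day 1. The ranges overlapped through 1 day 1 liver, and the difference was -0.77 ± 0.19 (limma adjusted p = 0.0329). These 2 were the members called of 6, against 1.82% of all genes. The Pdp2 call was lost in 5 of 8 fits that left out 1 liver, with differences from -0.68 to -0.58 without vehicle replicates 1 or 4 of day 1 or replicate 1 of day 14 (adjusted p 0.132, 0.132 and 0.137). It was also lost without replicate 3 of day 1 (-0.80, adjusted p = 0.0563) or of day 14 (-0.72, adjusted p = 0.0962). The day 14 vehicle livers stand in both this comparison and the metformin comparison of day 14: Pdp2 in metformin livers of day 14 (8.80 ± 0.11) was close to vehicle livers of day 1 (8.74 ± 0.34), while vehicle livers of day 14 were lower (7.98 ± 0.43).

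Between days 3 and 1 limma called 0 of 6 in vehicle livers (0% of all genes), and Pdk4 (0.66 ± 0.27, adjusted p = 0.998) and Pdp2 (-0.55 ± 0.19, adjusted p = 0.998) were the 2 with an unadjusted p under 0.05 (4.71% of all genes). Between days 14 and 3 it called 0 of 6 (0.889% of all genes), with Pdk3 (-0.23 ± 0.07, adjusted p = 0.170) and Pdk4 (0.97 ± 0.27, adjusted p = 0.109) at an unadjusted p under 0.05 (9.87% of all genes). Pdk4 was called there without vehicle replicate 1 of day 14 (1.25, adjusted p = 0.0210). The exact permutation test, unadjusted, passed 1 member there, Pdk3, whose livers of day 14 all lay below those of day 3, as in 4.07% of all genes.

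In metformin livers Pdk1 was higher at each later time. It was above day 1 by 0.63 ± 0.13 on day 3 (1.55-fold, limma adjusted p = 0.0184) and by 1.49 ± 0.13 on day 14 (2.82-fold, limma adjusted p = 2.57e-06). Day 14 also lay above day 3 by 0.86 ± 0.13 (1.82-fold, limma adjusted p = 7.56e-04). None of these 3 pairs of groups overlapped, as in 4.4%, 7.2% and 7.14% of all genes in that direction.

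Metformin-liver Pdk4 was lowest on day 3. It was higher on day 14 than on day 3 by 1.67 ± 0.27 (3.18-fold, limma adjusted p = 0.00112) and than on day 1 by 0.91 ± 0.27 (1.88-fold, limma adjusted p = 0.0288), while day 3 differed from day 1 by -0.76 ± 0.27 (limma adjusted p = 0.138). Pdp2 was higher on day 14 than on day 3 by 0.73 ± 0.19 (limma adjusted p = 0.0226) and differed by 0.09 from day 1 (limma adjusted p = 0.787). Its day 3 level differed from day 1 by -0.63 ± 0.19 and was not called (limma adjusted p = 0.0773). Between days 3 and 1, 3 of 6 members, Pdk1, Pdk4 and Pdp2, had an unadjusted p under 0.05 (17.3% of all genes). Members called in metformin livers were 1 of 6 between days 3 and 1 (1.8% of all genes), 2 of 6 between days 14 and 1 (13.9%) and 3 of 6 between days 14 and 3 (7.28%). Between days 14 and 1 in these livers 2 of 10 Kupffer cell markers (list median -0.48), 3 of 7 stellate cell markers (-0.43), 1 of 7 endothelial markers (-0.49) and 1 of 7 hepatocyte markers (-0.08) fell, and their part in the member differences was not tested. Calls within metformin livers were lost for Pdk1 between days 3 and 1 without replicate 2 or 4 of day 1 or replicate 2 of day 3 (adjusted p 0.0507, 0.0504 and 0.0630). The Pdk4 call between days 14 and 1 was lost in 5 of 8 such fits, without replicates 2, 3 or 4 of day 1 or 1 or 2 of day 14 (adjusted p 0.0537 to 0.0788), and the Pdp2 call between days 14 and 3 in 4 of 8, without replicate 1 or 3 of day 3 or 3 or 4 of day 14 (adjusted p 0.0521 to 0.0546). Median centring also ended these calls of Pdk4 (adjusted p = 0.0666) and Pdp2 (adjusted p = 0.0556). Testing every probe set ended those of Pdk1 between days 3 and 1 (adjusted p = 0.0623) and Pdk4 (adjusted p = 0.0543).

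Ordered by group mean, Pdk1 was highest in metformin livers of day 14 (11.71 ± 0.25), then metformin day 3 (10.85 ± 0.15), vehicle day 14 (10.74 ± 0.29), vehicle day 3 (10.56 ± 0.12), vehicle day 1 (10.49 ± 0.17) and metformin day 1 (10.22 ± 0.08). Only the step between its first 2 places separated neighbours without overlap. Pdk4 ran from vehicle day 14 (13.35 ± 0.70) through metformin day 14 (13.11 ± 0.30), vehicle day 3 (12.38 ± 0.30), metformin day 1 (12.21 ± 0.19) and vehicle day 1 (11.71 ± 0.48) to metformin day 3 (11.44 ± 0.33). Among those, metformin day 14 and vehicle day 3 were the only neighbours that did not overlap.

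Pdp2 had 3 groups near 8.7 to 8.8, namely metformin day 14 (8.80 ± 0.11), vehicle day 1 (8.74 ± 0.34) and metformin day 1 (8.70 ± 0.26). Its other 3 groups were vehicle day 3 (8.19 ± 0.13), metformin day 3 (8.07 ± 0.27) and vehicle day 14 (7.98 ± 0.43), and the gap of 0.51 between these sets was the only one without overlap. For Pdk2, with means from 14.74 ± 0.36 in metformin day 14 to 15.06 ± 0.09 in metformin day 1, for Pdk3 and for Pdp1 all neighbouring groups overlapped. In order from high to low, Pdk3 ran vehicle day 3, metformin day 1, vehicle day 1, metformin day 3, metformin day 14 and vehicle day 14 (5.72 ± 0.06 to 5.49 ± 0.06). Pdp1 ran metformin day 14, vehicle day 1, vehicle day 14, vehicle day 3, metformin day 3 and metformin day 1 (7.25 ± 0.17 to 7.16 ± 0.03).

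Some genes of the complex that these enzymes regulate were also higher in metformin livers of day 14. Of 5 tested subunit genes 3 rose and 0 fell, with a median difference of 0.72 against 0.01 over all tested genes. Here and in the lists below, rose and fell on day 14 mean called, as 3.29% of all genes were (2.07% as higher). The lists were chosen with earlier results of these data known. Dlat, the E2 acetyltransferase core, had 8.43, 9.75, 9.27 and 9.08 in metformin livers and 7.84, 8.09, 8.57 and 8.08 in vehicle livers (log2 intensity). Metformin replicate 1 lay inside the vehicle range and the other 3 above it, and the difference was 0.99 ± 0.18 (limma adjusted p = 0.00595). Pdhx, which holds E3 in the complex, had 8.84, 9.58, 9.07 and 9.17 in metformin livers and 8.14, 8.46, 8.64 and 8.37 in vehicle livers. Its groups did not overlap, and the difference was 0.76 ± 0.13 (limma adjusted p = 0.00451).

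Pdhb, the E1 beta subunit, had 10.53, 11.66, 11.00 and 10.90 in metformin livers and 9.95, 10.36, 10.53 and 10.36 in vehicle livers. The lowest metformin and the highest vehicle liver met at 10.53, and the difference was 0.72 ± 0.16 (limma adjusted p = 0.0186). This call was lost without vehicle replicate 1 (0.60, adjusted p = 0.0933), without metformin replicate 2 (0.51, adjusted p = 0.0523) and with every probe set tested (adjusted p = 0.0593). Dld, the E3 subunit, differed by 0.35 ± 0.11 (limma adjusted p = 0.0685), with all 4 metformin livers above the vehicle livers. Pdha1, the E1 alpha subunit that the kinases phosphorylate, differed by -0.06 ± 0.13 (limma adjusted p = 0.895). Leaving out 1 liver gave 2 to 4 called subunits, and the fit of the day 14 arrays alone called 0. In that fit 15 of the 16 called genes of the lists described here and below lost their calls (adjusted p 0.0512 to 0.231), and Acly kept its own (adjusted p = 0.0100).

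**Figure D3:**
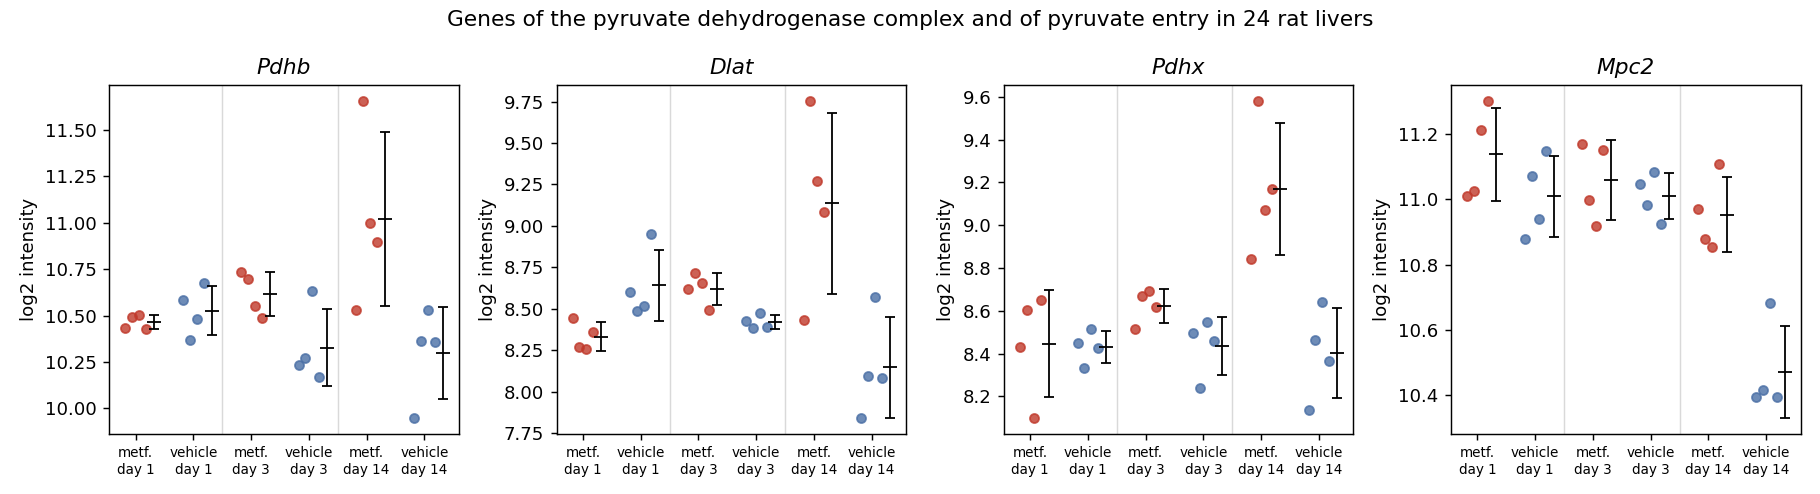
Log2 intensity (vertical axes) of the subunit genes Pdhb, Dlat and Pdhx and of the pyruvate carrier gene Mpc2 in the 24 livers, metformin left of vehicle on each day, with points for rats and bars for mean ± SD of 4 rats. In Pdhb and Dlat the lowest metformin liver of day 14 reaches into the vehicle range (10.53 and 8.43), and Mpc2 stands apart by its low vehicle livers of day 14 (10.39 to 10.68).

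In both day 14 groups, replicate 1 was the lowest liver for Pdk1, Pdp2, Pdhb, Dlat, Pdhx, Acly and Bckdk. It was not the lowest in both groups for Pdk2, Pdk3, Pdk4, Pdp1, Dld, Pdha1, Mpc1 or Mpc2. Over all tested genes, deviations of these replicate 1 rats from their group means correlated at 0.02. The labels do not say whether the number ties a metformin rat to a vehicle rat.

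Upstream of the complex, Mpc2, a subunit of the mitochondrial pyruvate carrier, had 10.97, 10.88, 10.85 and 11.11 in metformin livers of day 14 and 10.39, 10.41, 10.68 and 10.39 in vehicle livers. The groups did not overlap and differed by 0.48 ± 0.09 (limma adjusted p = 0.00617). Its partner Mpc1 differed by 0.01 ± 0.11 (limma adjusted p = 0.981). In vehicle livers Mpc2 fell by 0.54 ± 0.09 on day 14 relative to day 1 (limma adjusted p = 0.00122), so the vehicle livers of day 14, which both comparisons share, were the low ones.

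Of 13 tested genes of pyruvate supply and use, 3 rose and 1 fell on day 14 (median difference 0.02). Called or not, 9 lay higher and 4 lower, and 6 had an unadjusted p under 0.05 (16.8% of all genes). The rises were Mpc2, the malic enzyme Me1 (2.51 ± 0.39, limma adjusted p = 0.00174) and the liver pyruvate kinase Pklr (1.38 ± 0.32, limma adjusted p = 0.0218). Pck1, which draws oxaloacetate into glucose production, fell by 3.74 ± 0.49 (limma adjusted p = 5.21e-04). The Pklr call was lost without vehicle replicate 1 (1.09, adjusted p = 0.107), metformin replicate 2 (0.99, adjusted p = 0.0680) or metformin replicate 3 (1.34, adjusted p = 0.0531), and with every probe set tested (adjusted p = 0.0601). With the day 14 arrays alone none of the 4 was called (adjusted p 0.0869 for Mpc2, 0.0808 for Me1, 0.194 for Pklr and 0.0512 for Pck1).

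Downstream, 3 of 7 tested genes of acetyl-CoA use rose and 0 fell on day 14, with a median difference of 0.64. These were Fasn, the fatty acid synthase (3.09 ± 0.53, 8.50-fold, limma adjusted p = 0.00384), Acly, which makes cytosolic acetyl-CoA from citrate (2.45 ± 0.35, 5.45-fold, limma adjusted p = 8.42e-04), and Acaca, which makes malonyl-CoA (1.89 ± 0.34, 3.72-fold, limma adjusted p = 0.00458). All 3 calls held in each fit that left out 1 liver, and Fasn (adjusted p = 0.0663) and Acaca (adjusted p = 0.0837) lost theirs in the fit of the day 14 arrays alone. On day 1 the same 3 differed by -1.05, -0.98 and -0.16, with limma adjusted p of 0.636, 0.418 and 0.964.

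**Figure D4:**
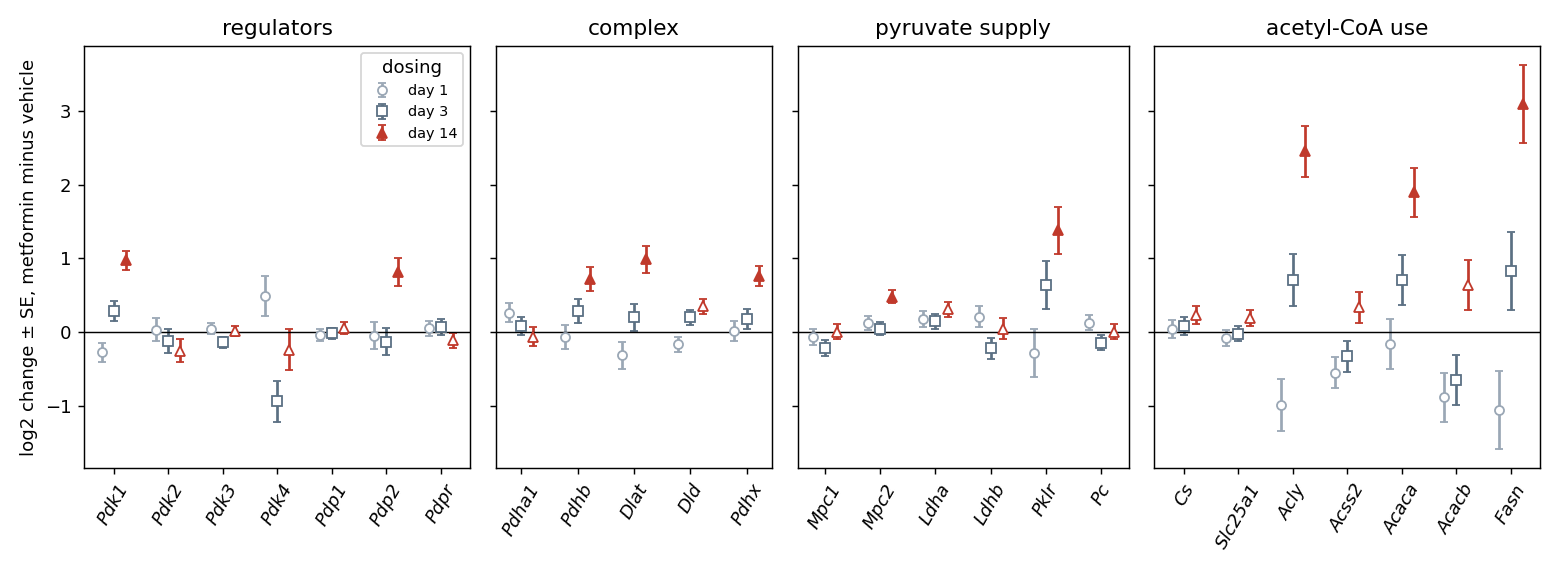
Log2 difference between metformin and vehicle livers for genes from the lists around the complex. Standard errors are those of the limma fit, and filled symbols mark called genes. Among the genes of acetyl-CoA use, Fasn (3.09) and Acly (2.45) lie farthest up on day 14. The subunits Dlat, Pdhx and Pdhb lie between 0.72 and 0.99 on that day.

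Lipoic acid is the cofactor that Dlat carries. Of 9 genes of its synthesis and attachment 2 rose on day 14, Bola3 (0.27 ± 0.07, limma adjusted p = 0.0439) and Lipt1 (0.49 ± 0.14, limma adjusted p = 0.0492). Both stood near the threshold: the Bola3 call was lost without vehicle replicates 1, 2 or 4 or metformin replicates 1 or 2 (adjusted p 0.0789 to 0.143). It was also lost with median centring, no filter, every probe set and the day 14 arrays alone (adjusted p 0.0531 to 0.231). The Lipt1 call was lost without any 1 of the 4 vehicle replicates or without metformin replicate 2 or 4 (adjusted p 0.0685 to 0.159), and with cyclic loess, median centring, no filter, every probe set, array weights and the day 14 arrays alone (adjusted p 0.0516 to 0.133).

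The branched-chain ketoacid dehydrogenase has its own kinase and phosphatase of the same families. Its phosphatase Ppm1k fell by 1.09 ± 0.26 on day 14 (limma adjusted p = 0.0236) and its kinase Bckdk differed by 0.50 ± 0.16 (limma adjusted p = 0.0830). The other 4 genes of that list, which include Pdpr, the regulatory subunit of PDP1 (-0.11 ± 0.10, limma adjusted p = 0.678), were not called. The Ppm1k call was lost without vehicle replicate 1 (-0.90, adjusted p = 0.112), without metformin replicate 2 (-0.88, adjusted p = 0.0833) and with every probe set tested (adjusted p = 0.0658) or the day 14 arrays alone (adjusted p = 0.103).

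Among 13 transcription factors and coactivators known to act on Pdk genes, limma called 0 on day 14 and 6 had an unadjusted p under 0.05 (16.8% of all genes). The smallest adjusted p were those of Esrrg (-0.54 ± 0.16, limma adjusted p = 0.0704) and Ppard (0.31, limma adjusted p = 0.146). Hif1a differed by 0.12 ± 0.14 (limma adjusted p = 0.776) and Ppara by -0.44 ± 0.20 (limma adjusted p = 0.260).

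Target lists of 3 of these regulators were counted on day 14. Of 19 hypoxia-inducible factor targets other than Pdk1, 0 rose and 1 fell, the histone demethylase Kdm3a (-0.47 ± 0.09, limma adjusted p = 0.00630, and adjusted p = 0.0781 with the day 14 arrays alone). Among these 19, 11 lay higher and 8 lower (median 0.04), and 7 had an unadjusted p under 0.05 (16.8% of all genes). Of 17 tested PPARA targets 0 rose and 1 fell, Cpt1a, which brings fatty acids into mitochondria (-1.67 ± 0.36, limma adjusted p = 0.0133). Among these 17, 11 lay higher and 6 lower (median 0.11), and 3 had an unadjusted p under 0.05. The Cpt1a call was lost without vehicle replicate 1 (-1.58, adjusted p = 0.0604) and with the day 14 arrays alone (adjusted p = 0.0912). Of 10 glucocorticoid targets Pck1 and Igfbp1, a secreted binder of insulin-like growth factors (-3.71 ± 0.99, limma adjusted p = 0.0414), fell. Among these 10, 2 lay higher and 8 lower (median -0.48), and 5 had an unadjusted p under 0.05 (16.8% of all genes). The Igfbp1 call was lost in 6 of 8 fits that left out 1 liver, that is without vehicle replicates 1, 3 or 4 or metformin replicates 1, 3 or 4 (adjusted p 0.0670 to 0.132), and with median centring, every probe set and the day 14 arrays alone (adjusted p 0.0614 to 0.113).

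On day 1 limma called 0 of the 97 genes of these lists and 26 had an unadjusted p under 0.05 (8.22% of all genes). On day 3 it called 0 and 11 had one (13.6% of all genes). Of the 17 PPARA targets on day 1, 15 lay higher and 2 lower in metformin livers (median difference 0.39), none called and 7 at an unadjusted p under 0.05. Ppara itself differed by 0.98 ± 0.20 on day 1 and was not called (limma adjusted p = 0.119). Pdk4, itself a PPARA target, differed by 0.50 there. Its correlation with the 17 PPARA targets over the 24 arrays ran from -0.47 for Hadha to 0.30 for Angptl4.

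Markers of other cell types are set beside the day 14 results as counts. None of 56 tested markers of 9 cell types was called on day 14 in limma, and 5 had an unadjusted p under 0.05 (16.8% of all genes). Summed intensity of 10 Kupffer cell markers ran from 11923 to 17210 in metformin livers and from 8803 to 21461 in vehicle livers, and all 10 lay lower in metformin livers (median -0.19). Summed sinusoidal endothelium markers ran from 9041 to 15827 and from 10431 to 18618, with 7 of 7 lower (median -0.20). Hepatocyte markers summed to between 2354580 and 2565900 in metformin livers and between 2415970 and 2672530 in vehicle livers. Adipoq, Myl1 and Ms4a1, markers of adipocytes, muscle and lymphocytes, were not above the filter in every array. Summed skeletal muscle markers did not overlap, at 275.1 to 296.3 in metformin livers and 301.2 to 324.5 in vehicle livers, with 6 of 7 lower (median -0.11). These markers were low in both groups, at a median percentile among genes of 41.4 in metformin and 42.5 in vehicle livers. The sums of the other 8 lists overlapped, and the part of these markers in the Pdk1 and Pdp2 differences was not tested. Whether a whole-liver difference came from the number of cells of a type or from RNA per cell cannot be told apart.

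The genes whose log2 levels varied most like each member over the 24 arrays were read from 17327 named genes. These correlations are descriptions: the points share 6 groups, so a gene that moved with the same group follows, and r of deviations from group means is also given. For Pdk1 the 5 highest were Acly (r = 0.90), Prpsap2 (0.89), Eapp (0.88), Gpbp1 (0.88) and the exocyst subunit Exoc6 (0.87). The lowest were Cnot1, the scaffold of the CCR4-NOT deadenylase (-0.92), and Tef, a clock-controlled transcription factor (-0.90). With Acly r was 0.42 within groups, with Cnot1 -0.68 and with Tef -0.31. Without metformin livers of day 14 r with Acly was 0.60 over the other 20 arrays.

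For Pdp2 the highest were Sgk2, a kinase of the serum- and glucocorticoid-regulated family (r = 0.69, and 0.69 within groups), Lingo3 (0.68), Plin2, a lipid droplet coat protein (0.68), Olr726 (0.67) and Eif4a3 (0.67), and the lowest were Spag1 (-0.70) and Chac2 (-0.66). Sgk2 rose on day 14 by 2.11 ± 0.37 (limma adjusted p = 0.00444). Its levels were 10.49, 10.04, 9.57 and 9.45 in metformin livers and 7.36, 8.77, 7.28 and 7.67 in vehicle livers, without overlap.

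**Figure D5:**
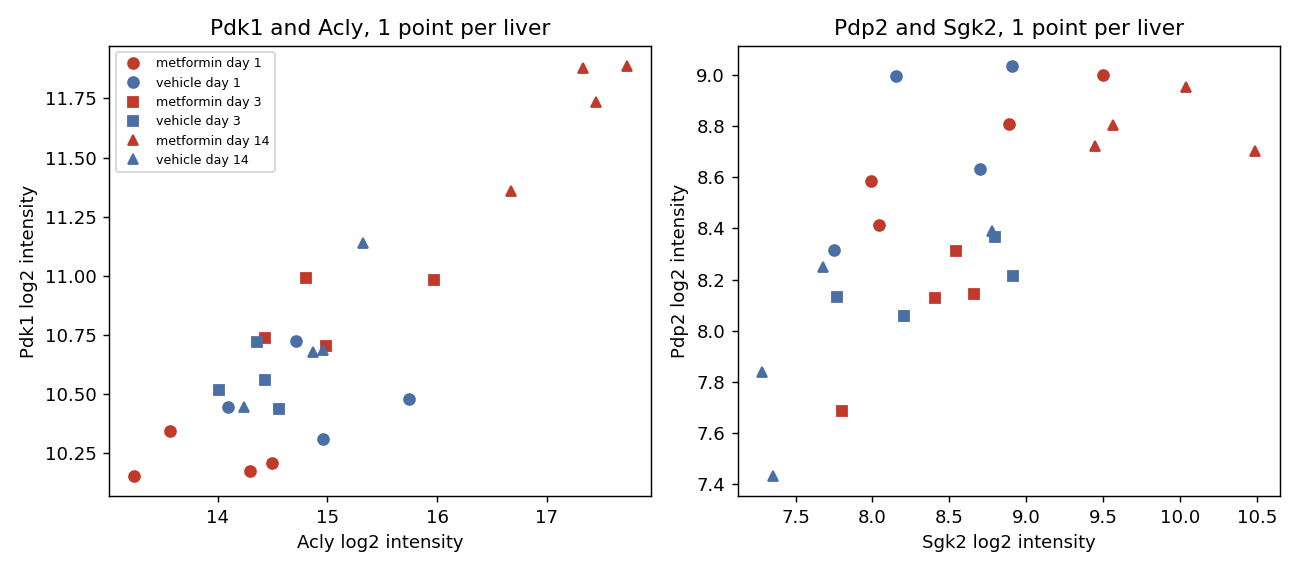
Log2 intensity of Pdk1 against Acly and of Pdp2 against Sgk2 (axes), a point for each of the 24 livers, with colour and shape for treatment and day. For Pdk1 and Acly (r = 0.90) the metformin livers of day 14 form the upper right corner, and for Pdp2 and Sgk2 (r = 0.69) the points spread more evenly.

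Pdk4 varied most like Cldn2, a tight junction protein (0.74, and 0.50 within groups), the clock-linked repressor Nfil3 (0.73), Plekhm2 (0.72), Prrg1 (0.71) and haem oxygenase Hmox1 (0.71), and least like the centromere proteins Cenpq (-0.79) and Cenpw (-0.78). Within groups r was only -0.28 with Cenpq and -0.05 with Cenpw. Pdk2 varied most like the heparan sulfatase Sulf2, Ecm1, the carbonic anhydrase Car14, Tst and Fxyd1 (0.82 to 0.81, and 0.80 within groups for Sulf2) and least like Matr3 (-0.87) and Tax1bp1 (-0.85). Pdk3 went with the secreted proteins Fstl1 (0.84, and 0.68 within groups) and Igfbp7 (0.79), App (0.78), Otulinl (0.78) and Mcam (0.77), and against Tmeff1 (-0.78) and Adss1 (-0.76). Pdp1 went with Ucma, Grifin, Cst8, Cd300lf and Efs (0.74 to 0.68, and 0.71 within groups for Ucma), and against Tmed6 (-0.67) and H3-7l (-0.65).

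The 6 genes did not vary as a set. Over the 24 arrays r between pairs ran from -0.43 for Pdk1 and Pdk2 to 0.40 for Pdk1 and Pdk4. Within groups the highest was 0.50 for Pdk4 and Pdp2, and the 2 genes called on day 14, Pdk1 and Pdp2, correlated at 0.13 over all arrays and 0.07 within groups.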

How the data were processed

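Liver RNA of 24 rats was hybridised to 24 Affymetrix arrays, 300 ng of total RNA each from 70 mg of frozen liver, per the labels' protocols. Values are linear intensities, deposited by the authors after RMA per the submitters' processing notes; no source used here gives its version, scan dates or scaling. Intensities reached 982564 to 994415 per array, so fold changes hold on the deposited scale. Of 68842 probe sets 23446 carried 1 symbol, 505 several and 44891 none; the first kind, above the table's 30th percentile (log2 4.28) in 4 or more arrays, was tested, which left 19686 genes. limma 3.58.1 (R 4.3.3) fitted 1 mean per group, with 3.51 prior degrees of freedom, for 13 comparisons, two-sided. The number of arrays limits the precision.

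The members and gene lists were chosen with earlier results of these data known, among them the Pdk1 rise on day 14, which is no independent support. Named genes were the 6 members, up to 4 called members of each list by smallest p (where none was called, up to 2), and the 5 most and 2 least alike genes over the arrays; Dld, Pdha1, Mpc1, Pdpr, Bckdk, Hif1a, Ppara, Per1, Ass1 and Apoa1 were added after their values were seen. Pairing was checked: deviations of same-numbered rats of a day correlated between -0.05 and 0.09. Low correlations cannot exclude a shared cage or batch, and the main fit did not treat numbers as pairs. Rats were housed 2 or 3 to a cage, and cages were not modelled; p-values measure the spread between these rats. Alternatives were quantile, cyclic loess and median-centred scaling, pseudocounts, filters, every probe set, arrays of the compared groups alone, array weights, the replicate block, leaving out each rat, an exact permutation test, and, added after seeing the data, omission of pseudogene symbols. On simulated data with 200 of 19686 genes changed, 98%, 94% and 90% of log2 changes of 1 were recovered for metformin against vehicle on days 1, 3 and 14, and 52%, 56% and 48% of changes of 0.5. The simulated noise was independent and normal, with the same spread per gene in all groups. These shares need not hold for genes whose spread differs between groups.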

Additional observations from a re-analysis of the deposited data

Results flagged for a closer look

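The metformin effect on Pdk1 differed between day 14 and day 1 by a test of the difference itself, at 1.25 ± 0.19 log2 (limma adjusted p = 0.00253). In vehicle livers of day 14 replicate 2 was the lowest Pdk3 value, at 5.40, with the other 3 close together. In metformin livers of day 1 replicate 3 was the lowest Pdp1 value, at 7.11, again with 3 close together. Gaps of this kind were tested in 36 groups of 4 rats and found in 2, and chance gives about 1 in 20.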

How the results depend on the processing

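Pdk1 kept its day 14 direction in every alternative run and lost its call in 1, the arrays of day 14 alone (adjusted p = 0.0596; difference 0.98, and 0.88 to 1.11 with 1 rat left out). Pdp2 on day 14 (0.82) lost its call with every probe set tested (adjusted p = 0.0568) and with the day 14 arrays alone (adjusted p = 0.112), and ran from 0.64 to 0.96 with 1 rat left out. Of the 6 members, 2 were called on day 14, against 1 with every probe set and 0 with those arrays alone (1 to 2 with 1 rat left out). The called subunits of the complex numbered 3, and 0 with those arrays alone (2 to 4 with 1 rat left out). On day 3 the count was 0, and 1 by the unadjusted permutation test. For the mean of the 3 days it was 1, and 0 with every probe set. In vehicle livers between days 14 and 1 it was 2, against 1 with every probe set, 0 with the compared arrays alone and 1 by permutation (1 to 2 with 1 rat left out); between days 14 and 3 it was 0, and 1 by permutation (0 to 1). In metformin livers it was 1 between days 3 and 1, against 0 with every probe set and 3 by permutation (0 to 1 with 1 rat left out). Between days 14 and 1 it was 2, against 1 with median centring, 1 with every probe set and 3 by permutation (1 to 2 with 1 rat left out). Between days 14 and 3 it was 3, against 2 with median centring, where Pdp2 lost its call (adjusted p = 0.0556). With 1 rat left out that count was 2 to 3. Small differences changed sign: Pdp1 on day 3 with median centring (0.0608), and Pdk3 on day 14 with quantile scaling (-0.00547), median centring (-0.0153) and array weights (-0.0110). With 1 rat left out, signs crossed 0 for Pdk2 (-0.0846 to 0.141) and Pdp2 (-0.185 to 0.0547) on day 1, Pdp1 (-0.0589 to 0.0127) and Pdp2 (-0.207 to 0.00130) on day 3, and Pdk3 (-0.0104 to 0.0507), Pdk4 (-0.508 to 0.00378) and Pdha1 (-0.158 to 0.0188) on day 14. They also crossed for the Pdp2 effect between days 3 and 1 (-0.180 to 0.0595).

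Counts over all genes moved more. On day 1, 3 genes were called, against 1 with quantile scaling, 1 with median centring, 0 with every probe set, 0 with the day's arrays alone and 27 with array weights (0 to 14 with 1 rat left out). On day 3, 50 were called, against 79, 27, 0 and 267 for centring, every probe set, the day's arrays alone and array weights, 32 without pseudogene symbols, and 1 to 372 with 1 rat left out. On day 14, 648 were called, against 283 with centring, 225 with every probe set and 48 with the day's arrays alone (153 to 968 with 1 rat left out). The causes were not tested. Testing every probe set adjusts over more tests. Fitting the day's arrays alone leaves fewer arrays for the spread and uses the spread of that day only. For Dlat the SD was 0.55 in metformin and 0.31 in vehicle livers of day 14, against 0.04 to 0.21 in the other groups. For Mpc2 it was 0.12 and 0.14 on day 14, against 0.07 to 0.14. With the replicate block 1 gene was called on day 1, and Bola3 (adjusted p = 0.0571) and Igfbp1 (adjusted p = 0.0554) lost their calls on day 14; no call of the 6 members changed under it. Pdk3 lay at 5.40 to 5.79, above the filter of 4.28 and the highest array median of 5.11. The standard error of its day 14 difference (0.07) was the smallest of the 6 members. A small change there may still not be detectable.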
